A study of Caenorhabditis elegans with 2 samples.

Results

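The fbxa genes are the F-box A family of the nematode Caenorhabditis elegans. They were taken as the protein-coding genes whose symbol is fbxa followed by a number, which gave 170 of 19973 protein-coding genes on the nuclear chromosomes. The symbol fbxa-41 is carried by 2 loci, so the 170 genes have 169 symbols. ZFH-2 is a transcription factor with zinc fingers and homeodomains, and its binding was mapped by chromatin immunoprecipitation sequencing with an antibody against GFP. The animals were of strain RW12167, which carries the allele st12167, a GFP fusion at the native zfh-2 gene made with CRISPR together with an unc-119(+) marker flanked by loxP sites, in an unc-119(tm4063) III background. The material was whole young adults aged 64.5 hours, synchronised by starving larvae of the first stage after bleaching, in 1 group of 2 biological replicates with no other condition. Peaks from all tissues are mixed, so a site bound in few cells and a site bound weakly in many cannot be told apart.

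F-box proteins are the substrate-binding subunits of SCF ubiquitin ligases. The F-box motif binds a Skp1-related adaptor, the adaptor binds a cullin, and the rest of the F-box protein selects the protein to be ubiquitinated. Nematodes of the genus Caenorhabditis have far more F-box genes than most animals, many of them in tandem arrays on chromosome arms. Substrates of most fbxa proteins are not known. FBXA-75 and FBXA-158 are known to work with the cullin CUL-6 in the response to intracellular pathogens and heat.

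A member was counted when a peak summit lay between 1000 bp upstream of its 5' end and its 3' end, here called its window. Of the 170 fbxa genes, 13 had a summit in the authors' conservative peak list. These genes held 14 summits, with a pair at fbxa-176. The sequences of 7 of the 14 summits are shown because they differ in what lies there. Each reaches 50 bases to either side of the summit on the forward strand of build ce11 (RefSeq, WBcel235), and capitals mark bases that align with a stretch elsewhere in the genome (BLAST E value of 1e-05 or less, over 1000 bp away). The first, at the strongest summit of the family, is in an annotated pseudogene 860 bp upstream of fbxa-176 (chrV:17548765-17548865). The second, at its weaker neighbour, lies in the same pseudogene (chrV:17548966-17549066). The third and the fourth lie in introns of fbxa-72 (chrV:676176-676276) and fbxa-190 (chrX:1372611-1372711). The fifth lies upstream of fbxa-108 (chrV:17659751-17659851). The last pair, with no match elsewhere, lie upstream of fbxa-66 inside a coding exon of iffb-1 (chrIII:2314802-2314902) and upstream of fbxa-61 in intergenic sequence (chrIII:1238235-1238335).
fbxa-176, strongest: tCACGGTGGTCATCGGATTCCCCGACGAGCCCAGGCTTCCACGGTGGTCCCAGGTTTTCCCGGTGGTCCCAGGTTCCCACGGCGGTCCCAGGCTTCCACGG
fbxa-176, weaker: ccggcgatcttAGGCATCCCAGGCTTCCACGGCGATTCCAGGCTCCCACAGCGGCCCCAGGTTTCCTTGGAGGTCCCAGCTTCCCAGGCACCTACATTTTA
fbxa-72: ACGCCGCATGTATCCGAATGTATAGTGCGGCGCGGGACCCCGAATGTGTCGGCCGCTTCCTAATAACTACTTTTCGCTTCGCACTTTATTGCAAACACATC
fbxa-190: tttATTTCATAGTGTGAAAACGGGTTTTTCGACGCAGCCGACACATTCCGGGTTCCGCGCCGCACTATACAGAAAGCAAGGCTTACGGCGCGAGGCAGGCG
fbxa-108: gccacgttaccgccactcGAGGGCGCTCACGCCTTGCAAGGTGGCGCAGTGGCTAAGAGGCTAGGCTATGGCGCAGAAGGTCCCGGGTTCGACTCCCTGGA
fbxa-66: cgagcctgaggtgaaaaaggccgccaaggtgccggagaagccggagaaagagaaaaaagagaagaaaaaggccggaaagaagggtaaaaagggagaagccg
fbxa-61: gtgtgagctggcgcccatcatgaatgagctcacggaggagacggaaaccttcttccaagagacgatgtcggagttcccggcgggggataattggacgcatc

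A smaller share of fbxa genes than of all protein-coding genes had a summit. The 13 of 170 genes are 7.65% (95% Wilson interval 4.52 to 12.6%), against 19.5% (3904 of 19973) of all protein-coding genes. Per length of window the family held 27 summits per Mb (14 in 0.519 Mb), against 80 per Mb over the windows of all genes, where a summit counts in each window that holds it. The median window was 2713 bp in fbxa genes and 3027 bp in all genes. With the promoter alone, which ran 200 bp into the gene from 1000 bp before it, 5 members had a summit (2.94%), against 8.82% of all genes. Genes are not replicates, and the family was chosen with earlier results of these data known, so these shares are a description with no test.

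No fbxa gene had a summit in its own coding exons. Among all genes 10.7% (2135 of 19973) had one there, which is 54.7% of the genes with a summit. Of the 14 fbxa summits 6 lay upstream of the gene, 5 in introns, 2 in 5' untranslated regions (fbxa-24 and fbxa-139) and 1 in an exon of fbxa-218 that belongs to transcripts with no annotated coding sequence.

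**Figure D1:**
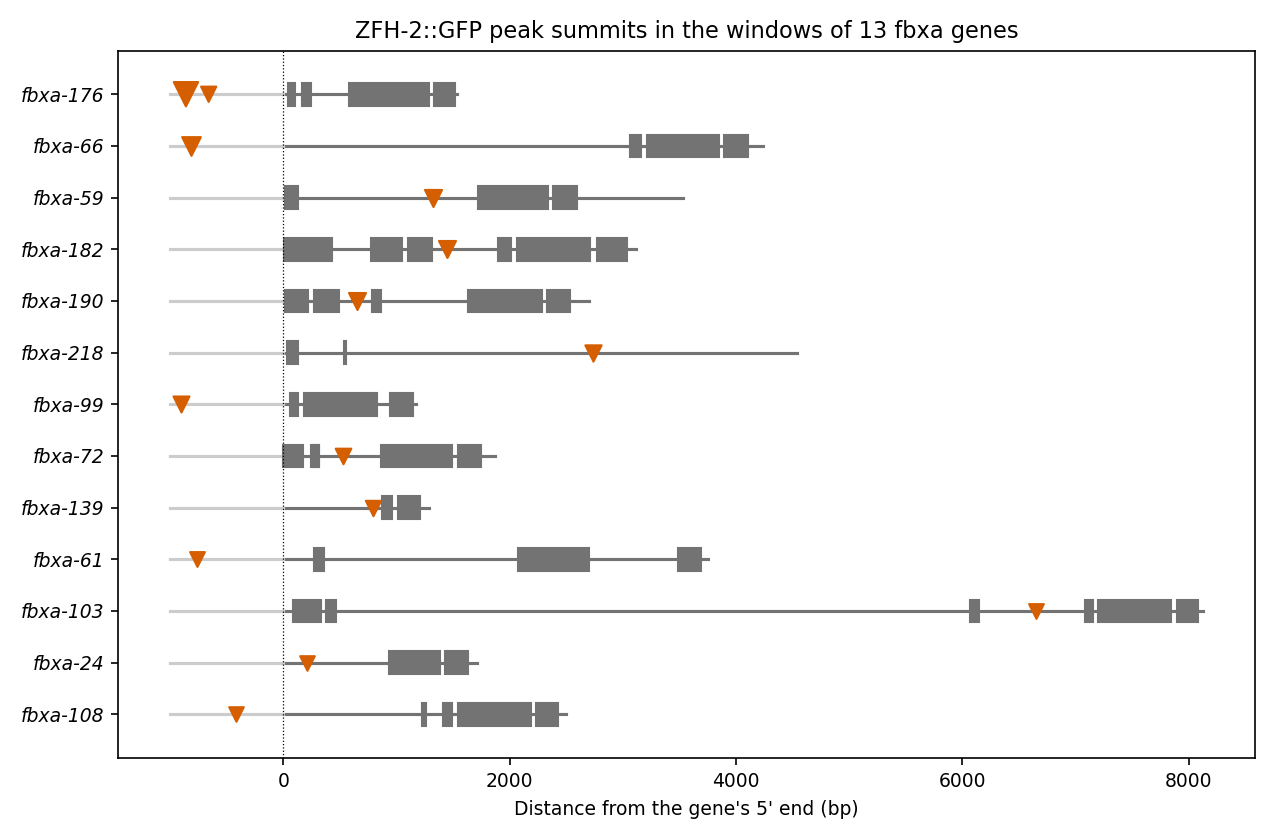
The 13 fbxa genes with a summit, drawn to scale from the gene's 5' end (x axis, bp), with annotated coding exons as boxes, the gene as a dark line and the 1000 bp upstream as a pale line. Triangles are the 14 summits of the conservative list, larger for a higher signal, and none lies in a coding exon.

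The upstream summits included the strongest of the family. The fbxa-176 gene (WBGene00008017, V 17549675 to 17551209, plus strand) had a summit at V 17548815, 860 bp upstream of its 5' end, with a signal of 351 and rank 227 of the 7085 nuclear summits. Its second summit, at V 17549016 and within the same peak, had rank 4625. Both lay inside WBGene00045293, an annotated pseudogene that ends upstream of fbxa-176. The signal is the authors' own value for each peak and ranks peaks within 1 list. In replicate 1's own ranked list the peak at the stronger summit had a signal of 184 (rank 303 of 33033) and in replicate 2's it had 167 (rank 194 of 32103). It was the highest fbxa peak in both replicates.

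The other upstream summits, except that of fbxa-61, also lay in the window of a neighbouring protein-coding gene. At fbxa-66 (III 2309792 to 2314035, minus strand) the summit at III 2314852 (rank 1515) was 817 bp upstream of the member and 416 bp downstream of the 5' end of the divergent gene iffb-1, which encodes the translation initiation factor eIF5B. It lay in a coding exon of iffb-1. At fbxa-99 the summit (V 15983756, signal 117, rank 3657) was 902 bp upstream and in an intron of the divergent gene F36G9.13. At fbxa-108 the summit (V 17659801, signal 87.1, rank 5656) lay between divergent genes, 416 bp from fbxa-108 and 502 bp from dgat-2, whose symbol names it as a diacylglycerol acyltransferase gene. Only the summit of fbxa-61 (III 1238285, signal 91.7, rank 5296), at 763 bp upstream, was in no other annotated gene and in no other protein-coding gene's window. When each summit was given to the nearest protein-coding gene alone, 11 members had one (6.47%, against 16.9% of all genes).

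Inside the genes, 5 summits lay in introns. The strongest of these were at fbxa-59 (III 942157, signal 142, rank 2566), within an intronic pseudogene, WBGene00023345, at fbxa-190 (X 1372661, signal 140, rank 2628) and at fbxa-182 (II 2411306, signal 140, rank 2635). The intronic summit of fbxa-72 (V 676226, signal 109, rank 4103) was also 808 bp upstream of srx-21, a chemoreceptor gene of the srx family. The longest member with a summit was fbxa-103 (window of 9129 bp), whose intronic summit lay 6655 bp downstream of the 5' end and had a signal of 90.6 (rank 5373). The exonic summit of fbxa-218 had a signal of 124, that of fbxa-139 a signal of 103 and that of fbxa-24 a signal of 87.4. Over all 14 summits the median signal was 113, against 119 over the whole list, and 6 of 14 were above the list's median.

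Many of these summits sat on sequence with at least 1 match elsewhere in the genome. Of the 14 summits, 9 (64.3%, 95% Wilson interval 38.8 to 83.7%) had a matching stretch elsewhere, against 24.9% of all 7085 summits. The 9 include both fbxa-176 summits, which lie in the same peak and are not independent. All 7085 summits also include those in genes' own coding exons, where no member had one. With 10 or more matching stretches there were 4 of 14 (28.6%, 11.7 to 54.6%), an interval that includes the 12.3% of all summits. The fbxa-72 summit matched 352 stretches, of which 62 held a conservative summit, and the fbxa-190 summit matched 237, of which 54 did. Their printed sequences share 17 bases on opposite strands, TGTATAGTGCGGCGCGG as read at fbxa-72, which 20 of all 7085 summits (0.282%) held within 50 bp on either strand. Among 77 pairs of summits of different members, fbxa-103 not included, this was the longest shared word, and the next longest had 11 bases. The fbxa-182 summit matched 176 stretches, of which 3 held a summit, and the fbxa-108 summit matched 59, of which 5 did. The other summits with a match had from 1 to 7. The part of repeated sequence in the presence of these peaks was not tested. Words of 50 bases within 250 bp of the summit were all unique in the genome at 10 of 14 summits, between 98% and 99% unique at 3, and 75.6% unique at fbxa-24.

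None of 5 short words searched on both strands within 50 bp of the summits occurred at a member's summit. These were GAGAGAGA, the E-box forms CAGCTG and CACGTG, TGACGTCA and TAATTA. In all summits their shares were 4.02%, 6.2%, 3.81%, 0.762% and 0.692%. The 95% Wilson interval of 0 of 14 reaches 21.5%, so a difference from these shares was not detectable with 14 summits.

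The replicates differed in which members passed the threshold. Replicate 1's own thresholded list had a summit in the windows of 7 members (4.12%, against 14% of all genes), and replicate 2's in those of 10 (5.88%, against 14.7% of all genes). The 6 members in both lists were fbxa-59, fbxa-66, fbxa-99, fbxa-176, fbxa-182 and fbxa-190. The conservative summit of fbxa-139 overlapped a peak in replicate 1's own list alone, and that of fbxa-218 in replicate 2's alone. For fbxa-24, fbxa-61, fbxa-72 and fbxa-103 neither replicate's own list had a summit, so these 4 were in the list made from both replicates and in neither made from 1. At fbxa-108 replicate 2's own list had a summit elsewhere in the window, and that list also held fbxa-76 and fbxa-77, which had no conservative summit. Among all genes with a conservative summit 57.2% were in both own lists and 21% in neither.

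The members fbxa-176 and then fbxa-66 had the strongest peaks at conservative summits in both replicates, and the order below them differed. The peaks overlapping the conservative summits had signals in replicate 1 of 94.2 at fbxa-66, 81 at fbxa-59, 73.7 at fbxa-190 and 73.3 at fbxa-182. In replicate 2 the signals at these 4 genes were 88.8, 62.2, 66.1 and 65.1. All 4 exceeded every other member apart from fbxa-176 in replicate 1, and in replicate 2 the signal of fbxa-218 (62.9) fell between them. How the signal was scaled is not given here in any source used, so replicates are compared by order only. Lower down, fbxa-99 had 65.4 in replicate 1 and 48 in replicate 2, and fbxa-72 had 58.4 and 48.1. At fbxa-24 the signals were 52.2 and 32.9, at fbxa-103 they were 50.2 and 40.3, and at fbxa-61 they were 47.9 and 44.2. These 5 genes lay below the 4 above in both replicates. At fbxa-139 the signal was 67 in replicate 1 (rank 3644) and 35.7 in replicate 2 (rank 7119), the widest gap in rank apart from the weaker fbxa-176 summit (37.6 with rank 9616, and 50.2 with rank 4346). At fbxa-108 replicate 1's ranked list had a peak of signal 46.2 at the summit, and replicate 2 had no peak overlapping it. Replicate 2's own list had instead a peak further upstream, at V 17660065 and 680 bp from the 5' end, with a signal of 79.5.

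**Figure D2:**
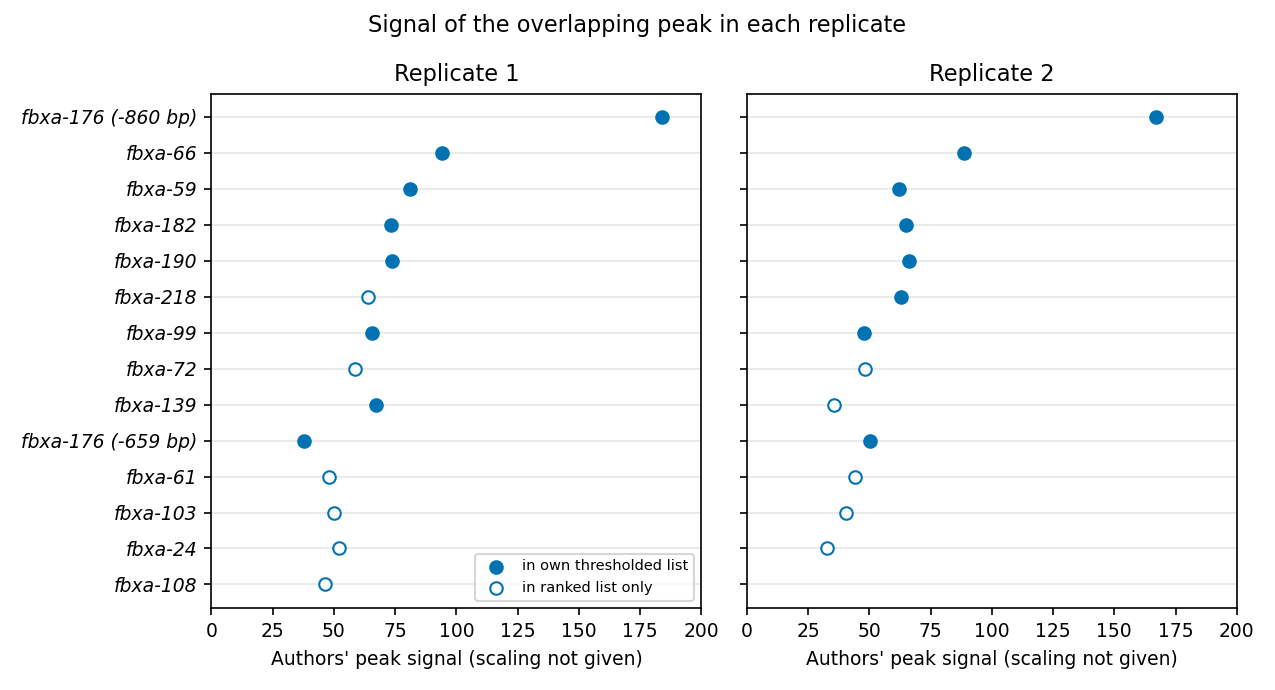
The authors' signal (x axis, scaling not given) of the peak overlapping each of the 14 conservative summits, for replicate 1 and replicate 2 separately. Filled points are in the replicate's own thresholded list and open points in its ranked list only, the stronger fbxa-176 summit is highest in both, and fbxa-108 has no overlapping peak in replicate 2.

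The family was also sparse in the longer ranked lists, which hold peaks above and below the threshold. These lists, with 33033 peaks in replicate 1 and 32103 in replicate 2, had a summit in both replicates for 29 fbxa genes (17.1%), against 37.8% of all genes. These included all 13 members with a conservative summit and 16 others (9.41% of the 170). The matching share of all genes without a conservative summit is not given here, so the part below the threshold is not compared. Ordered by the lower of the 2 replicates' signals, the first of these 16 were fbxa-76 and fbxa-77 (31.5 in replicate 1 and 50 in replicate 2 for both genes), which are neighbours that share the peak. Its summit lay 926 bp upstream of fbxa-76 and in an intron of fbxa-77, and it passed the threshold in replicate 2's own list, but its irreproducible discovery rate over both replicates was 0.0273. Next came fbxa-80 (27.8 and 26.7), fbxa-111 (52.1 and 26.5), fbxa-95 (33.9 and 22.7) and fbxa-220 (28.4 and 19.9), with rates from 0.0131 to 0.0399. The rate estimates the share of irreproducible peaks among those ranked at or above a peak, and the conservative list ended at 0.01. At least 1 ranked list had a summit in 45 members (26.5%), against 46.6% of all genes.

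The fbxa genes with a summit had GC-rich sequence in the window. GC content was read over 50 bases to either side of each position, and each gene was given the highest value in its window. Its median was 63.4% (range 57.4 to 72.3%) in the 13 members with a summit and 51.5% (42.6 to 71.3%) in those without. Over all protein-coding genes the medians were 62.4% with a summit and 54.5% without. The whole family had a median of 52.5%, against 55.4% for all genes. At the 14 fbxa summits themselves the GC content had a median of 59.9% (51.5 to 67.3%), against 55.4% at all summits. Members with a summit also had longer windows, with a median of 3702 bp against 2693 bp, and in all genes 4340 bp against 2875 bp. A highest value can rise with window length, and that part of the difference was not tested. The mean GC content of the whole window had a median of 36.7% in members with a summit and 34.3% in those without. In all genes these medians were 38.4% and 35.2%.

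The family lies low in the range of GC content, and its share with a summit was also low among GC-rich genes. All genes were divided into 10 equal groups by this value. The lowest 4 groups held 99 of the 170 fbxa genes (58.2%), of which 0 had a summit, against 0.588% of all genes there. The top 3 groups held 42 fbxa genes, of which 12 (28.6%, 95% Wilson interval 17.2 to 43.6%) had a summit, against 53.7% of all genes in those groups. In the top group 6 of 18 members had one (33.3%, 16.3 to 56.3%), against 72.3% of all genes. Some of the 18 are neighbours that share the same GC-rich place. The remaining member with a summit, fbxa-218, was in group 7.

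**Figure D3:**
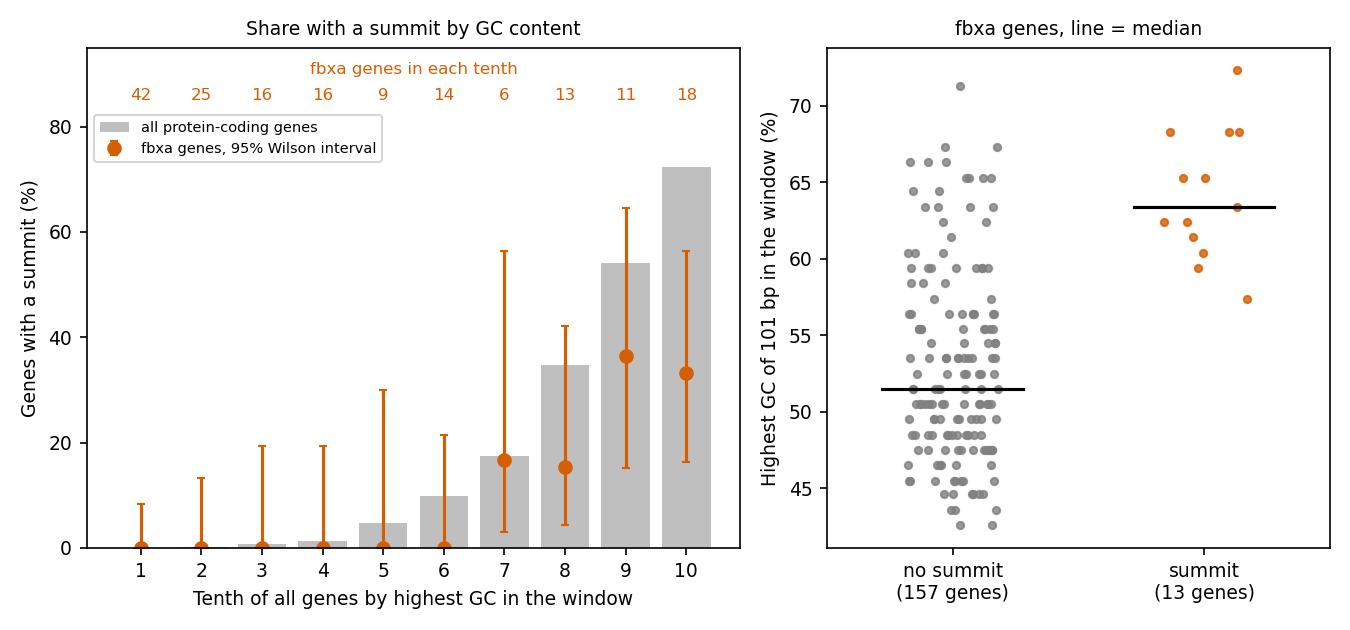
Left, the share of genes with a summit (y axis, %) in 10 equal groups of all genes by the highest GC content in the window, with all genes as bars, fbxa genes as points with 95% Wilson intervals, and the number of fbxa genes above. Right, that GC content for each member without and the 13 with a summit, with medians of 51.5% and 63.4%.

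The highest GC content at positions in coding exons had a lower median in fbxa genes than in all genes. The stretch of highest GC content lay in a coding exon in 50 of the 170 members (29.4%). The highest GC content in a coding exon had a median of 47% (38.6 to 58.4%) over the 170 members and of 52.5% (26.7 to 80.2%) over all genes. In the 13 members with a summit it was 47.5% (42.6 to 51.5%), close to the family. In the top GC group the highest value of all 18 members lay in an intron or upstream of the gene. Of the 6 with a summit 3 were in an intron and 3 upstream, and of the 12 without 5 were in an intron and 7 upstream. Some of the 12 are neighbours whose windows overlap and share the same place, so these are not 12 separate places. A shared place can count as an intron for a gene and as upstream for its neighbour.

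Several GC-rich members had no summit. The highest GC content among these was 71.3% in an intron of fbxa-157, followed by 67.3% upstream of fbxa-52 and of fbxa-83 and 66.3% upstream of fbxa-22, fbxa-56 and fbxa-133. For 5 of these 6 genes neither replicate's ranked list had a summit in the window, and for fbxa-133 the signals were 13.4 and 10 with a discovery rate of 0.566. A peak of the conservative list reached into the window of fbxa-52 with its summit outside. Unique 50-base words within 250 bp of the GC-rich position made up 42.5% at fbxa-133, 81.2% at fbxa-157, 89.2% at fbxa-52, 95.8% at fbxa-83 and 99% at fbxa-22 and fbxa-56. The last value covers 1 place, since fbxa-22 and fbxa-56 are neighbours. The part of such repeated words was not tested.

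The genes of the cullin partners FBXA-75 and FBXA-158 had no GC-rich stretch in the window. Both fbxa-75 and fbxa-158 had a highest GC content of 47.5%, were in the lowest of the 10 groups, and had no summit in the conservative list or in either ranked list. That group held 42 of the 170 fbxa genes (24.7%). Of all 1998 genes in the group, 0 had a conservative summit. The member fbxa-182, listed with them for a role in or with the response to intracellular pathogens, differed from both. It had a summit (signal 140, rank 2635) and a highest GC content of 63.4%, in group 9.

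Chromosomes V and III hold most of the family, with 71 and 60 of the 170 genes. On chromosome V 5 of 71 members had a summit (7.04%, against 13% of all genes there) and on chromosome III 4 of 60 (6.67%, against 24.1%). On chromosome II 2 of 14 members had one (14.3%, against 20.5% of all genes there) and on the X chromosome 1 of 14 (7.14%, against 22.2%). Chromosome I had 1 of 6 (16.7%, against 25.8%) and chromosome IV 0 of 5 (against 17.2%). With each chromosome cut into 3 equal parts, all but 4 members lay in the outer parts, the arms. There 13 of 166 members had a summit (7.83%), against 24.5% of all arm genes. In the centres 11.3% of all genes had one.

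With neighbouring members joined over gaps of at most 20 kb, 98 genes formed 14 runs of 3 or more, 20 genes stood in pairs and 52 stood alone. In the runs 5 of 98 members had a summit (5.1%, 95% Wilson interval 2.2 to 11.4%), in the pairs 2 of 20 and among the lone genes 6 of 52 (11.5%, 5.4 to 23%). These intervals overlap. The longest run, 26 genes from fbxa-61 to fbxa-25 on chromosome III (1239048 to 1349450), had its only summit upstream of the first gene, fbxa-61. The run of 15 genes from fbxa-12 to fbxa-66 (III 2219708 to 2314035) had its only summit beyond the last gene, fbxa-66, inside iffb-1. In the run of 10 from fbxa-55 to fbxa-51 (III 933422 to 963833) the summit was in the intronic pseudogene of fbxa-59. On chromosome V the run of 6 from fbxa-95 to fbxa-153 had a summit at fbxa-139, and the run of 5 from fbxa-176 to fbxa-133 had those upstream of its first gene. The other 9 runs had none, and no run had a summit at more than 1 member.

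**Figure D4:**
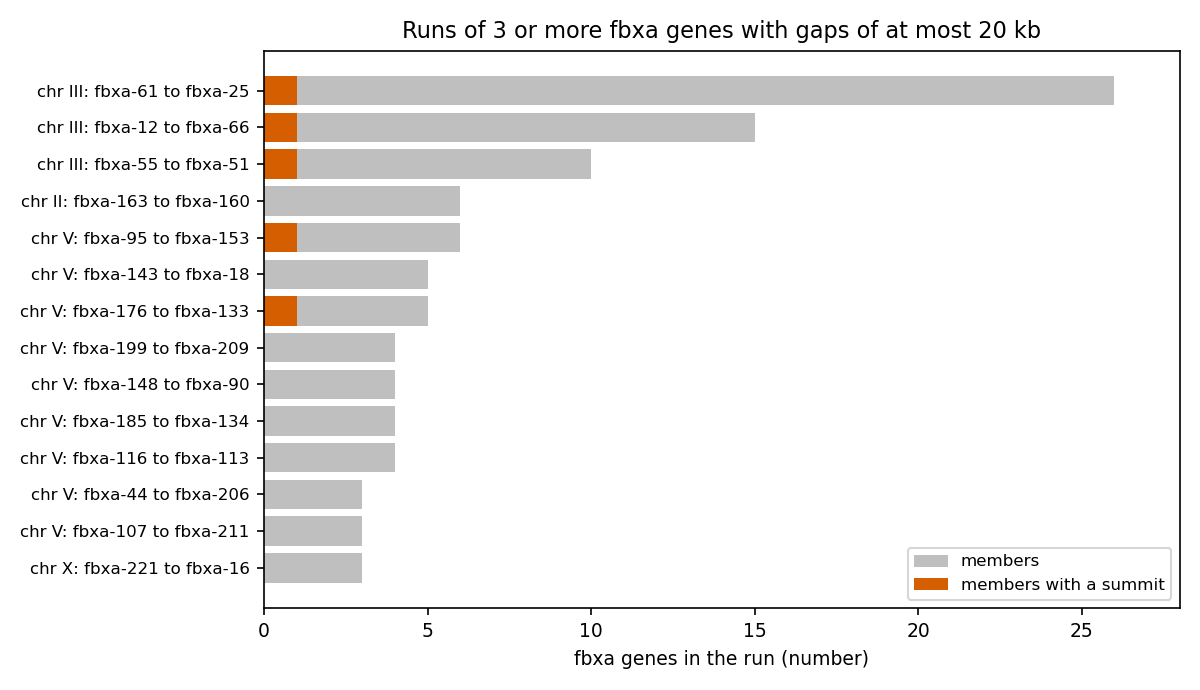
Number of fbxa genes (x axis) in each of the 14 runs of 3 or more members, named by chromosome and by first and last gene, with members that have a summit as the coloured part of the bar. In 5 runs 1 member has a summit, and in 9 none does.

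The windows of some members hold much sequence that recurs elsewhere in the genome. The median share of 50-base words in the window found once in the nuclear genome was 99.4% in fbxa genes and 100% in all genes. It was under 80% in 29 members (17.1%), against 6.92% of all genes, and it was 0 at both fbxa-41 loci. Of these 29 members 2 had a summit (6.9%), and of the other 141 members 11 did (7.8%). In all genes with 80% or more unique words the share with a summit was 20.2%, and in all genes under 80% it was 10.3% (142 of 1383). The handling of reads that map to several places is not stated in any source used here.

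The other F-box families had similar shares, and their median GC content lay between those of the fbxa genes and of all genes. Of the fbxb genes 6 of 104 had a summit (5.77%, 95% Wilson interval 2.67 to 12%), and of the fbxc genes 2 of 48 (4.17%, 1.15 to 14%). Their median highest GC contents were 53% and 54%, against 52.5% in fbxa genes and 55.4% in all genes. The sri genes, a chemoreceptor family, had a summit in 13 of 61 (21.3%, 12.9 to 33.1%), with a median GC content of 56.4%, and the clec genes, which encode C-type lectins, in 38 of 240 (15.8%, 11.8 to 21%), with 55.4%. The interval of the fbxa genes overlaps those of the fbxb and fbxc genes and ends below that of the sri genes, and it overlaps the lower end of that of the clec genes. No test between families was made.

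**Figure D5:**
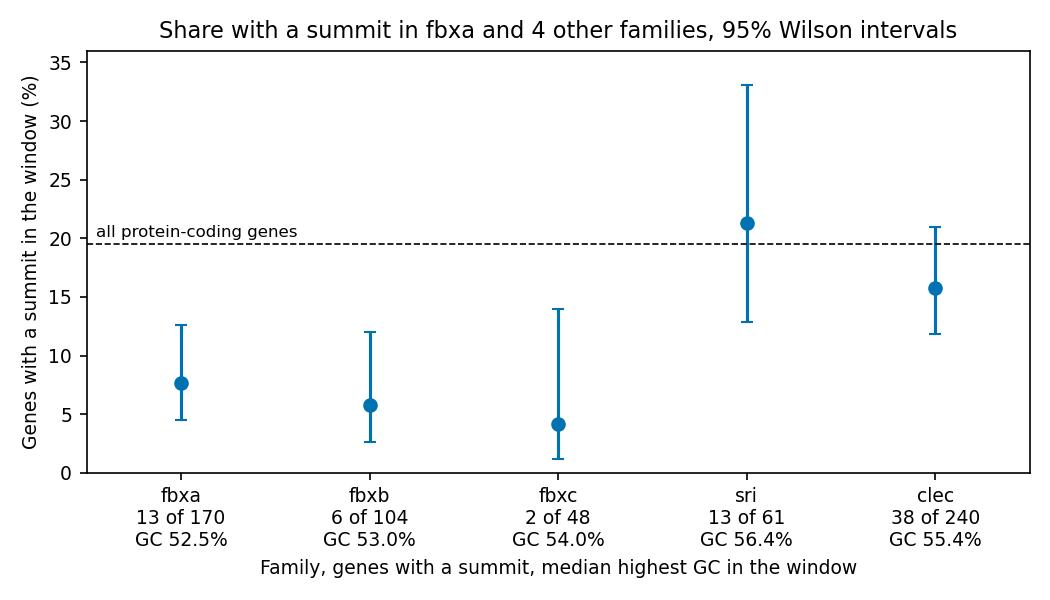
Share of genes with a summit in the window (y axis, %) in the fbxa, fbxb, fbxc, sri and clec families, with 95% Wilson intervals. The dashed line is the 19.5% of all protein-coding genes, and the 3 F-box families lie below it with their whole intervals.

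In a list of 34 genes for SCF subunits, related cullins and their regulators, 5 had a summit (14.7%, 95% Wilson interval 6.45 to 30.1%), an interval that includes the 19.5% of all genes. The list held cullins, RING subunits, Skp1-related adaptors and enzymes that charge or regulate them. The genes with a summit were ubc-3, which encodes a ubiquitin-conjugating enzyme of the CDC34 type (3 summits, the strongest with a signal of 191), ubc-12, the conjugating enzyme for the ubiquitin-like protein NED-8 (148), the Skp1-related genes skr-18 (139) and skr-15 (74.4), and cul-3 (72.8), whose cullin works with BTB proteins and not with F-box proteins. The cullin genes cul-1 and cul-6 had none. Of 9 F-box genes with known roles outside the lettered families, 3 had a summit (33.3%, 95% Wilson interval 12.1 to 64.6%). That interval also includes the 19.5% of all genes. The 3 were lin-23, the beta-TrCP homologue that limits cell division (rank 767), dre-1, a heterochronic gene (signal 213, rank 1012), and fsn-1, which acts in synapse formation (signal 88.2, rank 5572). Both lin-23 and dre-1 ranked above all fbxa summits except the stronger one of fbxa-176. Neither fog-2, a germline sex determination gene whose product resembles FBXA proteins, nor ftr-1, its close relative, had a summit.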

How the data were processed

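Peak lists of each replicate and of both replicates together were used as deposited, with coordinates on ce11, per the labels. No source used here gives the aligner, the peak caller or the handling of reads with several matches. No control library was analysed here. As deposited, each peak has the authors' signal, a score of at most 1000 and, in the ranked lists, −log10 of the global irreproducible discovery rate. Depth is unknown, since reads per peak are not listed. The 95% Wilson intervals cover counting of genes or summits only. The conservative list had 7085 nuclear summits, replicate 1's own list 4281 and replicate 2's 4696.

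Gene positions came from Ensembl release 115 and sequence from RefSeq, both assembly WBcel235, whose chromosome lengths no peak exceeded. A summit is the peak start plus the listed offset. GC content was read in 101 bp stretches, uniqueness in 50-base words on both strands, and repeats with BLAST 2.17.0. The window counting was tested on planted summits. The members and the gene lists were chosen with earlier results of these data known. Genes named are all members with a summit, the 6 without one of highest GC content, the 6 without one that were highest by the lower of their signals in the 2 replicates' ranked lists, fbxa-75, fbxa-158, fbxa-182, partner genes with a summit, neighbours whose window holds a summit and the ends of the largest runs. Further names (cul-1, cul-6, fog-2, ftr-1, fbxa-41, fbxa-85) were added after their values were seen. Intervals were computed with SciPy 1.17.1, tables with pandas 2.3.3 and NumPy 2.4.6, and plots with matplotlib 3.10.9, under Python 3.11.15.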

Additional observations from a re-analysis of the deposited data

How the results depend on the processing

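The count of 13 fbxa genes fell to 6 with the stronger 50% of summits, to 5 with the promoter window alone and to 8 with the gene body alone. Of all genes, 2474 had a summit with the stronger 50% (12.4%, against 3.53% of fbxa genes). With the promoter window 1761 did (8.82%, against 2.94%) and with the gene body 2955 (14.8%, against 4.71%). Leaving out a replicate, by using the other's own thresholded list, gave from 7 to 10 fbxa genes (4.12 to 5.88%). Of all genes it gave from 2790 to 2932 (14 to 14.7%). With summits that match no other stretch of the genome, chosen after seeing the data, 5 fbxa genes were left (2.94%, against 15.3% of all genes). With summits inside no other annotated gene, also chosen after seeing the data, 9 were (5.29%, against 16.2%). The share of fbxa genes was below that of all genes under each of these settings. It was also below under the remaining settings, where the counts ran from 9 to 16. The other pooled list gave 7.65% of fbxa genes against 19.7% of all genes, and 1 summit per merged region 7.65% against 19.5%. With 500 bp upstream the shares were 5.29% and 17.5%, and with 2000 bp 9.41% and 23%. Any overlap of the peak gave 8.24% and 20.6%, and the nearest gene alone 6.47% and 16.9%. The genes added with 2000 bp upstream were fbxa-111, fbxa-85 and fbxa-52, of which the last was also added with any overlap of the peak. The difference in median highest GC content between members with and without a summit was 11.9 percentage points, 10.4 with longer stretches and 15.8 with the promoter window and its summits. The last value splits members by a summit in the promoter window, which 5 had. Split by a summit in the full window, the promoter-window medians were 53.5% in the 13 members with one and 49.5% in those without. Runs of 3 or more members numbered 14 with gaps of 10 kb and 15 with 50 kb. No paired analysis was possible because there is 1 group.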
